A study of Homo sapiens with 4 samples.

Results

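The human mitochondrial genome carries 6 protein genes of respiratory complexes III to V, and their transcripts were followed in 2 cell lines with and without 2 h in a magnetic field. The genes were CYTB of complex III, COX1, COX2 and COX3 of complex IV (cytochrome c oxidase), and ATP6 and ATP8 of complex V (ATP synthase). They were the rows of the deposited expression table that carry these symbols, 6 of 26348 genes listed. COX1 and COX2 here are the oxidase subunits and not the prostaglandin synthases, which older texts give the same names. The lines were A549, established from a non-small cell lung cancer, and 293T, a renal epithelial line made from embryonic kidney. The 4 groups were A549 control, A549 exposed, 293T control and 293T exposed, with 3 libraries each. Controls received no magnetic field, and no other treatment or genetic change is named for any group. The sources used here do not give field strength, frequency, temperature or culture medium. No source says whether the 3 libraries of each group are separate cultures, and p-values therefore reflect only how much those libraries varied, which can be technical variation.

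Respiratory complexes pass electrons to oxygen and pump protons across the inner mitochondrial membrane, and ATP synthase uses the proton gradient to make ATP. Most of their subunits are encoded in the nucleus, while a small core is made inside mitochondria. The mitochondrial genome is copied into long precursor RNAs by its own polymerase, POLRMT. Transfer RNAs lying between the genes mark most of the sites where a precursor is cut, and the freed mRNAs receive short poly(A) tails. Cytochrome b (CYTB) carries electrons within complex III, COX1 holds the site where oxygen is reduced, COX2 takes electrons from cytochrome c, and COX3 stabilises that core. ATP6 forms part of the proton channel of ATP synthase, and ATP8 is a short membrane subunit beside it.

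All 6 genes are read from the same strand of the mitochondrial genome (MT, GRCh38). COX1 lies at MT:5904-7445, COX2 at MT:7586-8269, ATP8 at MT:8366-8572, ATP6 at MT:8527-9207, COX3 at MT:9207-9990 and CYTB at MT:14747-15887, each a single exon with no intron. The libraries were made from RNA caught by its poly(A) tail. The annotated 3′ ends of the genes are shown, and that of ATP8 lies inside ATP6 and not at a tail. These are the last 30 bases of each annotated transcript in GENCODE 29, 5′ to 3′, with the bases that the genome supplies for the stop codon in capitals.
COX1: ttcgaagaacccgtatacataaaatctAGA
COX2: tttgaaatagggcccgtatttaccctaTAG
ATP8: tcgcttcattcattgcccccacaatccTAG
ATP6: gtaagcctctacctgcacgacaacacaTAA
COX3: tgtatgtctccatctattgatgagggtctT
CYTB: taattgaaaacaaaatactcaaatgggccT
COX3 and CYTB end in a lone T, and their stop codons become complete when the poly(A) tail is added. ATP8 and ATP6 overlap at MT:8527-8572 and are read in different frames from a shared mRNA. The overlap is shown with the start codon of ATP6 and the stop codon of ATP8 in capitals.
Overlap of ATP8 and ATP6: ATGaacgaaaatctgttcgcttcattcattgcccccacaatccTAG
It is 46 bases long, 22.2% of ATP8 and 6.76% of ATP6, and reads inside it cannot be assigned to either gene by position. ATP6 and COX3 share 1 base, the last A of TAA being the first of ATG, as in MT:9193-9221 with both codons in capitals.
Junction of ATP6 and COX3: cacgacaacacaTAATGacccaccaatca

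Per-library totals of the counts recovered from the table (explained under the processing) ran from 37173110 to 38884704, the highest 1.046 times the lowest. A549 libraries carried KRT8 at 1564 to 1653 FPKM, KRT7, KRT18, AKR1B10 and ALDH1A1 at 556 FPKM or more, and EPCAM at 1.80 FPKM or more. The lung lineage markers NKX2-1 and SFTPC were at or near 0 there. In 293T, PAX8 and CDH16 of kidney were at or near 0, PAX2 and AQP1 stayed below 1 FPKM, and LRP2 reached 1.12 to 1.29 FPKM, while the neurofilament genes NEFL (16.8 to 18.1 FPKM) and NEFM (38.5 to 43.2 FPKM) were expressed. Not every marker kept to its line. KRT8 (26.6 to 32.2 FPKM), KRT18 (51.2 to 54.5), ALDH1A1 (3.69 to 5.70), AKR1B10 (0.713 to 1.57) and NKX2-1 (0.725 to 1.00) were present in 293T. KRT7 and EPCAM were found there too, below 1 FPKM. NEFL (2.85 to 3.90 FPKM) and CDH16 (1.14 to 1.85) were present in A549. INA was at 7.83 to 9.14 FPKM in A549 and 13.5 to 18.9 in 293T, and NAPSA at 0.541 to 1.33 and 0.488 to 0.903. Among 6 markers of blood, fibroblast and endothelial cells, COL1A1 alone passed 1 FPKM (up to 3.33 in A549 and 2.44 in 293T), and PTPRC, CD3E, COL1A2, DCN and PECAM1 were at or near 0 in both lines.

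Transcripts of the 6 genes were among the most abundant in every library. Levels are given in FPKM, fragment counts scaled by gene length and library total. Comparing genes in this unit assumes that their reads are counted alike. Ranked by FPKM among all genes, COX1 and COX2 held places 1 to 3 in each library, COX3 places 2 to 3, ATP6 places 4 to 5 and CYTB places 6 to 8. ATP8 was lower, at places 12 to 23. It shares an mRNA with ATP6, yet its FPKM was 0.226 to 0.304 of that of ATP6 in A549 controls. In 293T controls this ratio was 0.324 to 0.356, so the place of ATP8 holds for FPKM and not for mRNA level. The cause was not tested. The order was not the same in both lines. In A549 controls, COX1 led at 17865 ± 1221 FPKM (SD, n = 3 here and below). COX2 (14894 ± 497 FPKM) and COX3 (14878 ± 819 FPKM) followed with overlapping libraries, and then came ATP6 (8359 ± 558 FPKM), CYTB (4775 ± 198 FPKM) and ATP8 (2225 ± 464 FPKM). In 293T controls, COX2 led at 8400 ± 261 FPKM, above every library of COX1 (6952 ± 232 FPKM) and COX3 (6745 ± 174 FPKM), which overlapped. ATP6 was at 6199 ± 314 FPKM, CYTB at 3483 ± 185 FPKM and ATP8 at 2082 ± 128 FPKM. The highest gene stood 8.03 times above ATP8, the lowest in FPKM, in A549 controls and 4.04 times in 293T controls. In exposed 293T the order of the 6 means was the same, and in exposed A549 it differed only between COX2 and COX3, whose libraries overlapped in both groups.

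**Figure D1:**
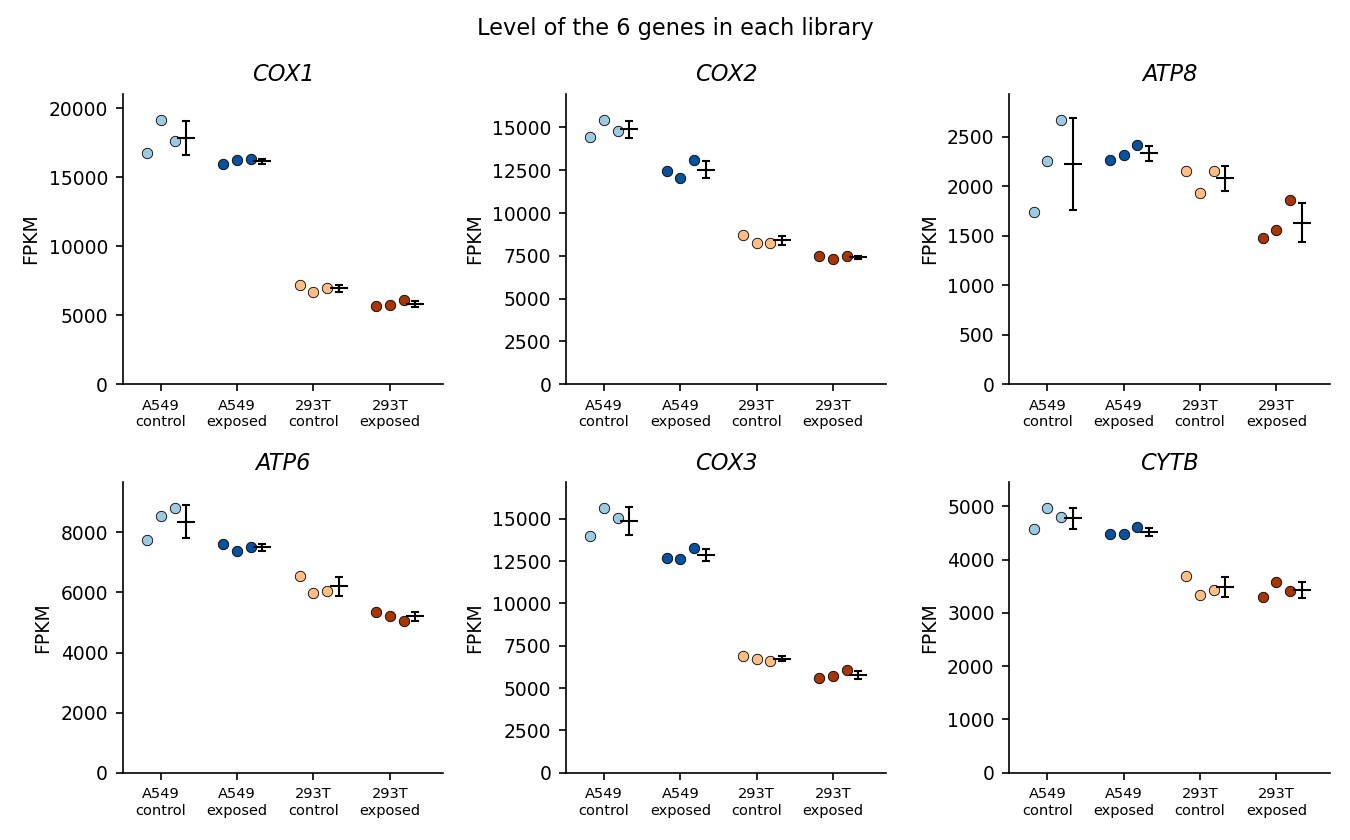
FPKM of each gene (linear axes from 0) in the 12 libraries. Points are libraries in the 4 groups, and the bar beside each group is the mean with its SD (n = 3). COX1, COX2, COX3 and ATP6 are lower in every exposed library than in every control of the same line, while the CYTB groups overlap in both lines.

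The first comparison asked how the 6 transcripts differed between exposed and control A549 cells. COX1, COX2, COX3 and ATP6 fell by 9.52% to 15.8% in mean FPKM, and CYTB and ATP8 did not pass the test. Of all 13811 genes tested, 26.9% were called lower in A549 and 13.3% higher, so 4 of 6 lower stands beside a background in which falls were common. The median log2 fold change of the 6 genes was -0.15, beside -0.04 over all genes tested. Changes were tested with limma on log2(FPKM + 1), with Benjamini-Hochberg adjustment over all genes tested and a threshold of 0.05, and every adjusted p below comes from that fit unless another test is named.

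COX2, the subunit that docks cytochrome c, was at 14458, 15436 and 14789 FPKM in the A549 controls and at 12463, 12074 and 13069 FPKM in the exposed libraries. Every exposed library lay below every control, and the log2 fold change of -0.25 (SE 0.03, adjusted p = 1.20e-04) had the lowest adjusted p of the 6. COX3 went from 13993, 15608 and 15032 FPKM to 12693, 12618 and 13251 FPKM, again with no overlap (log2 fold change -0.21, SE 0.04, adjusted p = 0.00129). Among the 6 genes, these 2 had the largest log2 fold changes in A549.

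COX1, which holds the catalytic site, was at 16749, 19169 and 17677 FPKM in controls and at 15944, 16248 and 16301 FPKM after exposure. The groups did not overlap, although the lowest control lay close to the exposed libraries, and the change was smaller (log2 fold change -0.14, SE 0.04, adjusted p = 0.0198). ATP6 of the proton channel went from 7730, 8553 and 8794 FPKM to 7608, 7366 and 7512 FPKM (log2 fold change -0.16, SE 0.05, adjusted p = 0.0173). Its control replicate 1 was likewise near the exposed libraries. Of all genes tested, 32.6% had every exposed A549 library below every control, as these 4 genes did.

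CYTB was at 4568, 4962 and 4794 FPKM in controls and at 4478, 4484 and 4614 FPKM in exposed cells. The groups overlapped, and the log2 fold change of -0.08 (95% interval -0.17 to 0.01, adjusted p = 0.167) missed the threshold. ATP8 ran from 1746 through 2258 to 2672 FPKM over the A549 controls and from 2271 to 2422 FPKM over the exposed libraries. Its controls spread around the exposed values, with a coefficient of variation of 20.8% against at most 6.83% for any of the other A549 control means. The log2 fold change of ATP8 was 0.09 (95% interval -0.18 to 0.36, adjusted p = 0.616), an interval that holds falls as large as those of COX1 and ATP6.

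COX1 and ATP6 were the less firm of the A549 calls. COX1 missed the threshold without control replicate 2 (adjusted p = 0.0712) or exposed replicate 1 (0.0654), and ATP6 without control replicate 2 (0.0586), control replicate 3 (0.0809) or exposed replicate 2 (0.0563), in a range of 0.00153 to 0.0809 for ATP6 and 0.00363 to 0.0712 for COX1 over 12 such fits. Both were also lost with each library centred on its median, and all 4 calls were lost with quantile normalization, which gives equally ranked genes equal values and so holds these top-ranked genes in place.

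In 293T the same comparison called 5 of the 6 genes lower. Mean FPKM fell by 16.2% for COX1, 11.7% for COX2, 14.1% for COX3, 16.1% for ATP6 and 21.5% for ATP8, and CYTB did not pass the test. The background in 293T was 24.2% of genes called lower and 13.7% called higher. The median log2 fold change of the 6 genes was -0.24, beside -0.03 over all genes tested.

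COX1 was at 7175, 6713 and 6969 FPKM in the 293T controls and at 5677, 5726 and 6075 FPKM after exposure, which is -0.26 on the log2 scale (SE 0.04, adjusted p = 8.54e-04). ATP6 was at 6558, 5976 and 6064 FPKM in controls and at 5348, 5206 and 5045 FPKM in exposed cells (log2 fold change -0.25, SE 0.05, adjusted p = 0.00127). For both genes a clear gap separated the groups, unlike in A549. COX3 went from 6922, 6736 and 6575 FPKM to 5617, 5708 and 6048 FPKM (log2 fold change -0.22, SE 0.04, adjusted p = 0.00123). COX2 went from 8701, 8241 and 8258 FPKM to 7480, 7302 and 7473 FPKM (log2 fold change -0.18, SE 0.03, adjusted p = 0.0014). All 5 genes called had every exposed library below every control, as had 30.8% of all genes tested.

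ATP8 had the largest log2 fold change of the 6 in 293T and the widest error. It was at 2152, 1934 and 2160 FPKM in controls and at 1481, 1560 and 1863 FPKM in exposed cells, with replicate 3 of the exposed group nearest to the controls. The log2 fold change of -0.35 (SE 0.12, adjusted p = 0.0389) missed the threshold without control replicate 1 or 3 or exposed replicate 1 or 2, in a range of 0.00617 to 0.138 over 12 fits that left out 1 library. It was also lost with no filter on low values (0.111), with median centring (0.0563) and with quantile normalization (0.0541). ATP8 is the shortest of the 6 genes, at 207 bases, and had the fewest counts, 11394 to 21467 per library. Whether either bears on its spread between libraries was not tested. CYTB was at 3688, 3329 and 3432 FPKM in the 293T controls and at 3292, 3578 and 3415 FPKM in exposed cells. These groups overlapped throughout, and the log2 fold change of -0.02 (95% interval -0.11 to 0.07, adjusted p = 0.723) lies near 0.

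COX1, COX2, COX3 and ATP6 were thus called lower in both lines. The test of the difference between the lines called 0 of the 6 genes, beside 12.5% of all genes tested called either way. The widest gap was in ATP8, with a difference of 0.44 on the log2 scale between its change in A549 and its change in 293T (SE 0.17, adjusted p = 0.118), and leaving out A549 control replicate 3 brought it past the threshold (adjusted p = 0.0307, in a range of 0.0307 to 0.226). For the other 5 genes the differences lay between -0.07 and 0.11, with adjusted p from 0.26 to 0.926. At an unadjusted p under 0.05 only ATP8 passed among the 6, and limma-voom on the recovered counts called 0.

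The share of all counts held by the 6 genes was lower in exposed libraries of both lines. In A549 it was 5.75%, 6.43% and 6.12% in controls and 5.38%, 5.38% and 5.53% in exposed libraries. In 293T it was 3.16%, 2.95% and 3.00% in controls and 2.60%, 2.63% and 2.69% in exposed libraries. The means dropped by 0.667 percentage points in A549 and by 0.399 in 293T with no overlap between groups, and a two-sided exact permutation test gave p = 0.1 in each line, the smallest p that 3 against 3 libraries allow. The 7 complex I genes of the same genome dropped by 0.343 percentage points in A549 and by 0.165 in 293T. Within the counts of all 13 mitochondrially encoded protein genes, the 6 genes kept 69.1% ± 0.212 in A549 controls and 69.5% ± 0.464 in exposed cells (exact permutation p = 0.3, n = 3 each). In 293T that share was 61.0% ± 0.525 and 59.8% ± 0.701 (exact permutation p = 0.2, n = 3 each). Bulk values do not tell fewer cells with these transcripts from less of this RNA per cell.

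Because FPKM depends on the total of the library, the genes were also compared with each other inside each library, where that total cancels. COX1 stood 3.67 to 3.86 times above CYTB in A549 controls and 3.53 to 3.62 times in exposed A549 cells. In 293T the same ratio was 1.95 to 2.03 in controls and 1.60 to 1.78 in exposed cells. COX2 over CYTB went from 3.09 to 3.17 in A549 controls down to 2.69 to 2.83 in exposed cells, and from 2.36 to 2.48 down to 2.04 to 2.27 in 293T.

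COX3 over CYTB was at 3.06 to 3.15 in A549 controls and 2.81 to 2.87 in exposed cells, and at 1.88 to 2.02 and 1.60 to 1.77 in 293T. ATP6 over CYTB overlapped in A549 (1.69 to 1.83 against 1.63 to 1.70) and did not in 293T (1.77 to 1.80 against 1.46 to 1.63). Of 5 ratios to CYTB, 3 in A549 and 5 in 293T had every exposed library below every control. All 5 share CYTB as the divisor, which passed the limma test in neither line, so falls already called carry over into these ratios. Against CYTB, 21.1% of other genes in A549 and 20.9% in 293T likewise had every exposed library below every control.

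**Figure D2:**
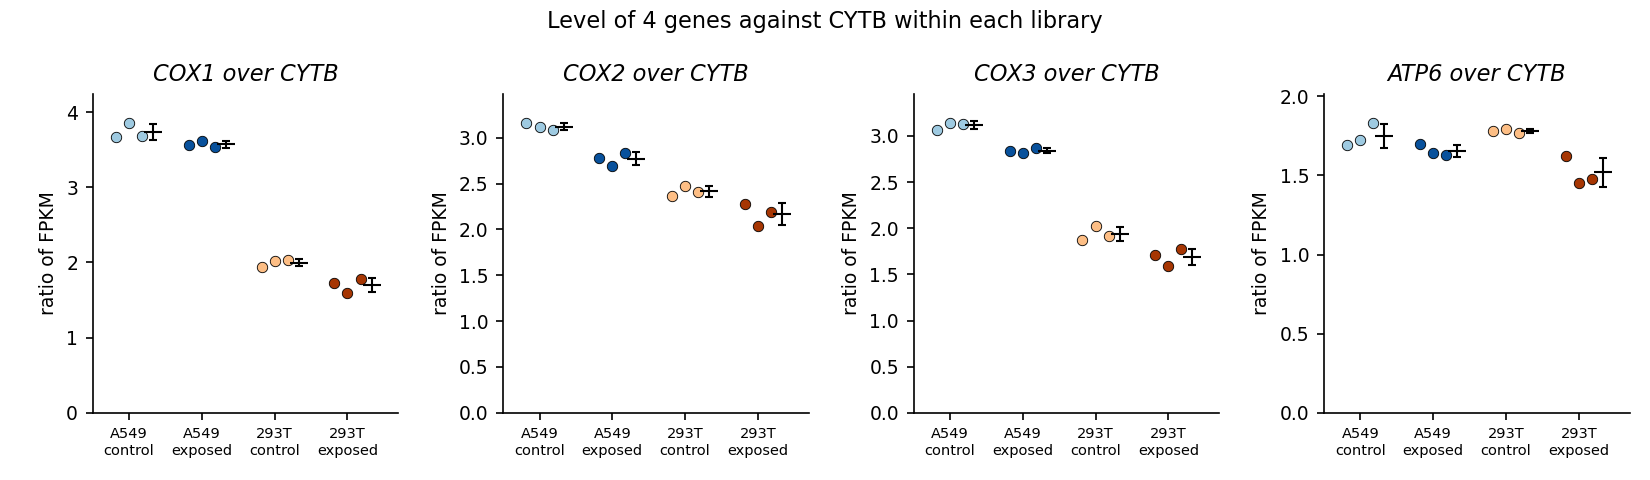
Ratio of FPKM to that of CYTB in the same library for COX1, COX2, COX3 and ATP6 (linear axes from 0). Points are the 3 libraries of each group and bars are the mean with its SD. Exposed libraries lie below the controls of their line in 7 of the 8 contrasts, and the ATP6 libraries of A549 overlap.

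Against the mean log2 level of all 6 genes in the same library, the exact permutation test called no gene among the 12 tests (6 genes in 2 lines, lowest p = 0.1 and adjusted p = 0.3, n = 3 each), and 3 against 3 libraries cannot reach the threshold. CYTB moved up against that mean by 0.19 on the log2 scale in 293T with no overlap, from -0.55 ± 0.02 to -0.36 ± 0.07, and by 0.05 in A549 with overlap. COX2 moved by -0.13 and COX3 by -0.09 in A549 with no overlap, whereas in 293T COX2 moved by 0.03 and COX3 by -0.01 and the groups overlapped. COX1 moved by -0.04 in 293T with no overlap and by -0.02 in A549 with overlap. ATP8 moved by 0.21 in A549, the largest shift there, and by -0.14 in 293T, and ATP6 by -0.03 and -0.04, each with overlap. ATP8 is part of the mean that the others are set against, so its wide spread between libraries enters their values too.

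The order of the genes along the strand was looked at after these values had been seen, so what follows is a description. In order from the start of the precursor, the 12 protein genes on this strand are ND1, ND2, COX1, COX2, ATP8, ATP6, COX3, ND3, ND4L, ND4, ND5 and CYTB. They were cut after COX3, the last gene called in either line, so the counts and medians on each side partly follow from that choice. Of the 7 genes up to COX3, 6 were called lower in A549 and 7 in 293T, beside 26.9% and 24.2% of all genes tested. Of the 5 genes after COX3, which include CYTB, limma called 0 in either direction in either line. The median log2 fold change was -0.21 up to COX3 and -0.08 after it in A549, and -0.25 and -0.03 in 293T.

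ND1, the first protein gene and a core subunit of complex I, had the largest change of the 12 in both lines, with a log2 fold change of -0.58 in A549 (adjusted p = 5.11e-06) and -0.52 in 293T (adjusted p = 3.01e-05). ND2, next along the strand, was at -0.22 in A549 and -0.18 in 293T, close to the COX genes that follow it. ND3, which directly follows COX3, was at 0.06 in both lines and did not pass the test (adjusted p = 0.231 and 0.237). Across the 12 genes, the order along the strand and the log2 fold change had a Spearman rho of 0.629 in A549 and 0.783 in 293T. The points share libraries and precursor, so this is a description of these libraries over genes, which are not independent replicates. Among the 5 genes after COX3, ND4 (adjusted p = 0.0577) and ND5 (0.07) came nearest to the threshold in A549, and both passed there at an unadjusted p under 0.05 and were called lower by limma-voom on the recovered counts. In 293T 0 of these 5 passed in either of those ways. With the sum set without mitochondrial genes, CYTB was also called lower in A549 (adjusted p = 0.0364, in a range of 0.0364 to 0.757 over the alternatives).

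**Figure D3:**
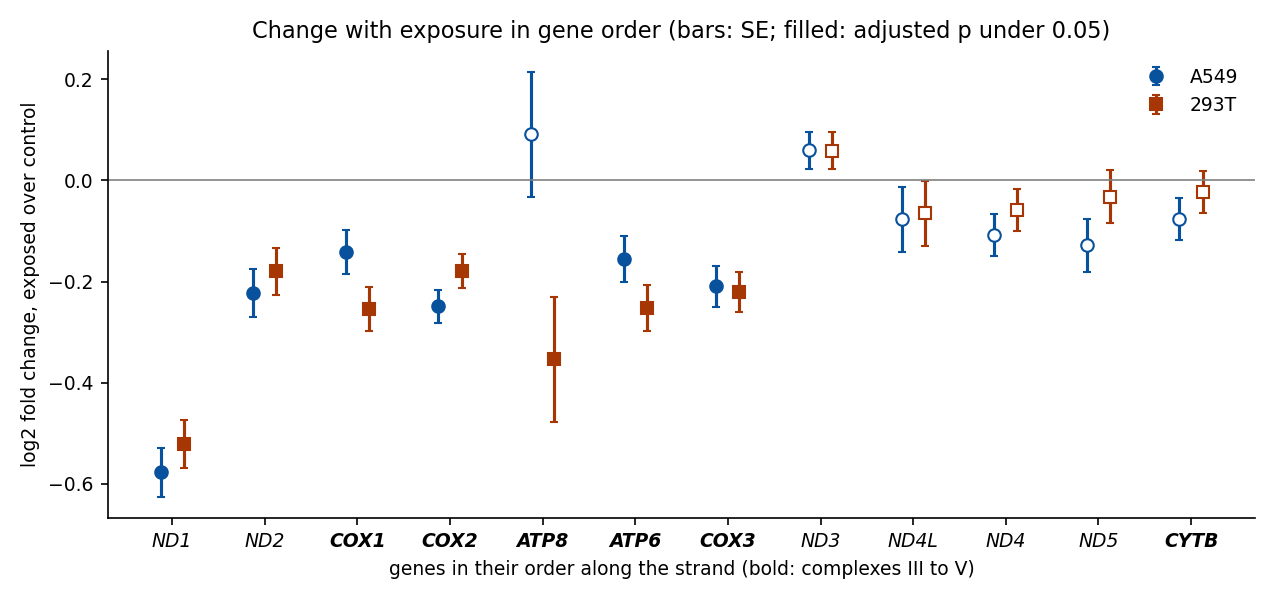
Log2 fold change of exposed over control with its SE (vertical axis) for the 12 protein genes of the strand in genome order (horizontal axis), circles for A549 and squares for 293T, filled where the adjusted p is under 0.05. Filled points end at COX3 in both lines, and CYTB, the last gene, lies at -0.08 and -0.02.

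ATP8 aside, the lines themselves differed more in the level of each of these transcripts than exposed cells did from controls. Between controls, 5 of the 6 genes were higher in A549, beside a background of 32.4% of genes called higher and 55.9% called lower. The ratio of mean FPKM in A549 over 293T was 2.57 for COX1 (log2 difference 1.36, SE 0.04, adjusted p = 4.11e-12) and 2.21 for COX3 (1.14, SE 0.04, adjusted p = 1.06e-11). It was 1.77 for COX2, 1.37 for CYTB and 1.35 for ATP6. ATP8 did not pass the test, at 1.07 times (log2 difference 0.08, 95% interval -0.19 to 0.34, adjusted p = 0.565). The 6 genes were not higher by a common factor, since complex IV genes stood 1.77 to 2.57 times higher and CYTB and ATP6 less. COX1 over CYTB was 3.74 ± 0.108 in A549 controls and 2.00 ± 0.046 in 293T controls. COX3 over ATP6 was 1.78 ± 0.063 and 1.09 ± 0.036, while ATP6 over CYTB was 1.75 ± 0.075 and 1.78 ± 0.014.

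These log2 differences between the lines depend on the scaling, because the median of all genes was itself -0.25. That median was -0.41 after rescaling to TPM, where the same 5 genes were called higher, and -0.15 after quantile normalization. Quantile normalization turned COX2 (-0.32), CYTB (-0.16) and ATP6 (-0.05) to called lower in A549 and left COX1 alone called higher (0.31).

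Nuclear genes for the same complexes showed no common fall. Of 12 nuclear complex IV subunits tested, 3 rose and 0 fell in each line, with a median log2 fold change of 0.08 in both. The background was 13.3% called higher and 26.9% called lower in A549, and 13.7% and 24.2% in 293T. COX6C rose in both (0.16, adjusted p = 0.0144 in A549, and 0.13, adjusted p = 0.0433 in 293T). COX8A, another small subunit, went from 191 ± 4.36 to 213 ± 7.38 FPKM in A549 (log2 fold change 0.16, adjusted p = 0.00229), and COX5B from 126 ± 6.52 to 142 ± 5.56 FPKM in 293T (0.17, adjusted p = 0.00501). COX6A1 rose in 293T (0.11, adjusted p = 0.0329). Leaving out each library in turn ended the 293T call of COX6C in 8 of 12 fits, with adjusted p between 0.0114 and 0.161, and that of COX6A1 in 4, between 0.00828 and 0.132. Both were also lost there with no filter (0.0882 and 0.0779), with the equal sum (0.0824 and 0.0643) and with no trend (0.0657 and 0.0644). In the same fits without 1 library, the count of rises there ran from 1 to 4, with 1 without control replicate 1 or exposed replicate 2. At an unadjusted p under 0.05, 5 of the 12 were higher in A549, 6 in 293T and 0 lower in either line, and limma-voom called 3 higher and 0 lower in each. With each library centred on its median, 10 of the 12 were called higher in A549 and 4 in 293T. With the sum set without the mitochondrial genes, 2 were higher in A549 and 1 in 293T, and with quantile normalization 0 were called in A549 and 2 rose in 293T. With no filter on low values, 1 subunit was called higher and 1 lower in 293T.

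Of 18 nuclear complex V subunits, 2 rose and 0 fell in A549, and 3 rose and 0 fell in 293T. The shares that rose were near the 13.3% and 13.7% of all genes called higher, and 26.9% and 24.2% were called lower. ATP5ME rose in A549 (0.13, adjusted p = 0.0188), as did ATP5MC2 of the rotor ring (0.09, adjusted p = 0.0387). Without 1 library the ATP5ME call was lost in 3 of 12 fits (adjusted p from 0.00601 to 0.0794) and the ATP5MC2 call in 5 (0.0281 to 0.128), and both were lost with the equal sum and with quantile normalization. ATP5ME was also lost with limma-voom (0.0556) and with each line alone (0.0673). ATP5MC2 was also lost with no trend (0.0726) and with the replicate block (0.0585). The count of rises in A549 was 0 without control replicate 3, 4 without control replicate 2, and 1 without any of the other A549 libraries. ATP5F1B, the catalytic beta subunit, rose in 293T from 600 ± 2.26 to 643 ± 9.14 FPKM (0.10, adjusted p = 0.00967). ATP5IF1, the inhibitor of ATP synthase, rose there from 64.8 ± 1.85 to 74.8 ± 1.23 FPKM (0.21, adjusted p = 0.013). At an unadjusted p under 0.05, 0 of the 18 were lower in A549 and 2 in 293T, and limma-voom called 0 and 1 lower. Centring on the library median gave 9 of 18 higher in A549 and 5 in 293T. The 293T call of ATP5IF1 was lost without control replicate 2 (adjusted p = 0.0526) and that of ATP5F1B with quantile normalization (0.588). Quantile normalization gave 0 higher and 1 lower in A549 and 3 higher in 293T, and the equal sum gave 0 higher in A549 and 2 higher with 2 lower in 293T.

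Complex III was mixed, with 2 of 9 nuclear subunits higher and 3 lower in A549 and 1 higher and 2 lower in 293T, beside 13.3% of all genes higher and 26.9% lower in A549, and 13.7% and 24.2% in 293T. UQCRFS1, the Rieske iron-sulfur protein, fell in both lines (-0.17, adjusted p = 0.00172 in A549 and 0.00198 in 293T). Cytochrome c1 (CYC1) fell in both as well (-0.11, adjusted p = 0.0401, and -0.18, adjusted p = 0.00316). UQCRQ, a small supporting subunit, rose in both (0.17, adjusted p = 0.0149 and 0.0155). CYTB, their mitochondrially encoded partner, passed the test in neither line. Complex III calls were few and some of them hung on single libraries, with 0 to 3 higher and 1 to 3 lower in A549 when 1 library was left out. The A549 call of CYC1 was lost in 6 of 12 such fits (adjusted p from 0.0224 to 0.111), and that of UQCRQ in 2 in A549 (up to 0.0697) and 3 in 293T (up to 0.0683).

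**Figure D4:**
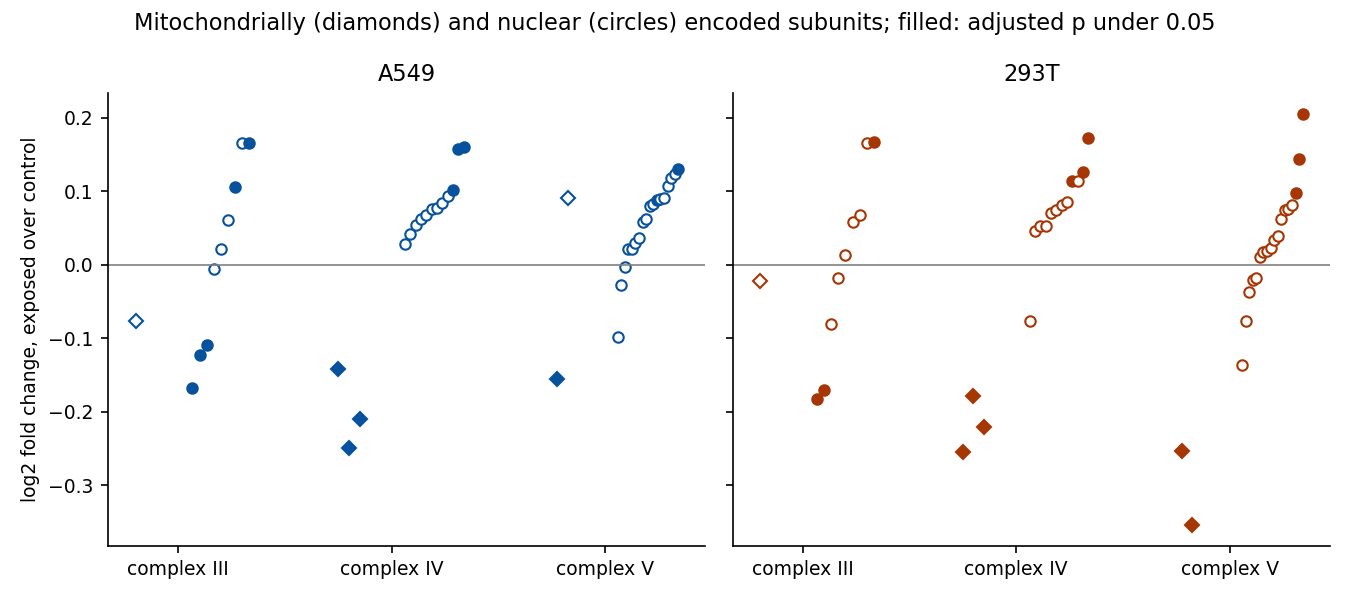
Log2 fold change of exposed over control (vertical axis) for subunits of complexes III, IV and V in A549 (left) and 293T (right). Diamonds are mitochondrially encoded and circles nuclear encoded subunits, filled where the adjusted p is under 0.05. The COX1, COX2 and COX3 diamonds lie between -0.26 and -0.14, and of the nuclear complex IV circles only rises are filled.

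Genes that build these complexes moved both ways. Of 31 assembly factors tested, 7 rose and 9 fell in A549, and 5 rose and 6 fell in 293T, with 13.3% and 13.7% of all genes called higher and 26.9% and 24.2% lower, so that the falls were near that background. The falls in A549 numbered 4 without exposed replicate 1, and the rises in 293T 3 without exposed replicate 1. SCO2, a copper chaperone for COX2, fell in A549 from 9.48 ± 0.198 to 6.79 ± 0.545 FPKM (-0.43, adjusted p = 1.05e-04) and was at -0.12 in 293T (adjusted p = 0.106). ATPAF2, which assists assembly of the ATP synthase head, fell in both (-0.22, adjusted p = 0.00183, and -0.29, adjusted p = 3.85e-04). UQCC3, needed for complex III assembly, fell in 293T (-0.27, adjusted p = 0.00103). With median centring the A549 split became 12 higher and 5 lower.

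Of 30 genes for mitochondrial transcription, RNA processing and RNA stability, 10 fell and 2 rose in each line. The background was 26.9% lower and 13.3% higher in A549, and 24.2% and 13.7% in 293T. POLRMT, the mitochondrial RNA polymerase, went from 13.4 ± 0.992 to 10.1 ± 0.260 FPKM in A549 (-0.38, adjusted p = 1.62e-04) and from 20.2 ± 0.448 to 16.3 ± 0.864 FPKM in 293T (-0.29, adjusted p = 0.00115). FASTKD2, an RNA-binding protein of mitochondrial RNA granules, fell most among the named genes of this list (-0.48, adjusted p = 0.00127, and -0.59, adjusted p = 5.12e-04). TBRG4, a relative of it, fell by 0.16 and 0.21 on the log2 scale (adjusted p = 0.00127 and 4.09e-04). POLG2, the accessory subunit of the mitochondrial DNA polymerase, fell by 0.41 and 0.26 (adjusted p = 3.30e-04 and 0.00678). Median centring changed the A549 split to 6 higher and 7 lower, and left 293T at 2 higher and 9 lower.

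Of 9 regulators of mitochondrial biogenesis, 3 rose and 2 fell in A549, and 1 rose and 2 fell in 293T, the falls again near the 26.9% and 24.2% of all genes called lower, beside 13.3% and 13.7% called higher. When 1 library was left out, 1 to 3 fell in A549 and 0 to 1 rose in 293T. MYC, a broad transcription factor that also acts on nuclear genes for mitochondria, rose in A549 from 26.3 ± 0.409 to 45.8 ± 2.50 FPKM (0.78, adjusted p = 6.63e-07) and fell in 293T from 23.6 ± 0.999 to 15.7 ± 0.464 FPKM (-0.56, adjusted p = 1.19e-05). PPARGC1B, a coactivator of respiratory genes, fell in both lines (-0.41, adjusted p = 5.63e-04, and -0.33, adjusted p = 0.00286), at below 1 FPKM in A549.

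By pattern over the 12 libraries, with the mean of each line taken out, the genes most like the mean of the 6 were TMEM203 (Pearson r 0.968), FKBP10 (0.953), PRPS1 (0.951), IBA57 (0.95) and GTPBP1 (0.949), all nuclear, among 11633 genes ranked. These values include any change with exposure and the scale of each library. All 5 had negative log2 fold changes in both lines. In A549, TMEM203 (limma adjusted p = 0.0934) and IBA57 (0.149) did not pass the test. ND2 (0.879, place 272) and ND1 (0.871, place 339) came far below them, and ND3 was at -0.127.

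Copies of mitochondrial DNA in the nuclear genome could share reads with the 6 genes. The nearest in GENCODE 29 by BLASTN was MTCO1P12 for COX1, identical at 98.6% of aligned bases. MTCO2P12 matched COX2 at 98.0%, MTATP6P1 matched ATP6 at 98.5% and MTATP8P1 matched ATP8 at 97.6%, and like MTCO1P12 they lie in 1 stretch of chromosome 1. The next copy in that stretch, MTCO3P12, covers 69.8% of COX3 at 98.2% identity. For CYTB the nearest, MTCYBP35 on chromosome 5, was identical at 86.0%. None of these copies is listed in the deposited table, and their part in the results was not tested.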

How the data were processed

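RNA of 4 samples, each with 3 replicate library columns, was measured. Per the labels' protocols, total RNA was taken with TRIzol, treated with DNase and selected on oligo(dT) beads, and random hexamers primed the cDNA, which was sequenced in pairs. The build was GRCh38 and the tools included HISAT2, HTSeq and fastp, per the submitters' processing notes, with versions, settings and use of strand not given in the sources used here. Only FPKM values were used as deposited. Reads of ATP8 and ATP6 in their overlap, and of near-identical nuclear copies, may therefore have been given to either gene or to none. Whole counts were recovered from the FPKM with RefSeq lengths (GRCh38.p14) of the mitochondrial genes, within a tolerance of 0.01 counts for 99.9% of the 26348 genes; they gave depth, shares and a limma-voom alternative. All 12 columns were mapped to samples, 0 were left out, and 0 pairs were identical.

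Genes with at least 0.5 FPKM in at least 3 libraries were kept, 13811 genes, with 12537 removed. Log2(FPKM + 1) was modelled with limma 3.58.1 under R 4.3.3, giving each group 1 mean over all 12 libraries, with an intensity trend (8 residual degrees of freedom), and two-sided p-values had Benjamini-Hochberg adjustment over all genes tested. The fit was tested on simulated data. Shares and within-library levels had exact permutation tests (Python 3.11.15, pandas 2.3.3, numpy 2.4.6). Folds are ratios of mean FPKM, and a log2(FPKM + 1) change understates that of low genes. Sequences came from GENCODE 29 transcripts, compared with BLASTN 2.17.0. All 6 genes were named, from each list the 2 tested genes with the smallest adjusted p in each line, and the 5 genes most alike in pattern with a mean of at least 1 FPKM. The genes and lists were chosen with earlier results of these data known, and ND3, ND4 and ND5 were named after their values were seen. Mitochondrial ribosomal and transfer RNAs were not analysed here: 0 of their 24 symbols matched, and of the other lists COX4I2, COX6A2 and COX7A1 did not match. FASTKD4, another symbol of TBRG4, was measured under the latter name. COX6B2 and PET117 matched, and the filter on low values removed them.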

Additional observations from a re-analysis of the deposited data

How the results depend on the processing

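Alternatives were quantile normalization, TPM, a pseudocount of 0.1, no filter, a mean of at least 1 FPKM, median centring, an equal sum without mitochondrial genes, no trend, each line alone, a replicate block, limma-voom on the recovered counts and leaving out each library. Main counts were 4 of the 6 genes lower in A549 and 5 in 293T. In A549 they were 2 with no filter, with median centring and with each line alone, 0 with quantile normalization, and 2 to 4 without 1 library. In 293T they were 1 with quantile normalization, 4 with no filter and with median centring, and 4 to 5 without 1 library. The difference between lines called 0 to 1 of the 6 genes higher, and 637 to 1030 of all genes lower, without 1 library. Between controls, quantile normalization called 1 of the 6 higher and 3 lower.

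Signs turned with quantile normalization for CYTB (0.0273), COX3 (0.0101), COX6A1 (-0.0207), ND2 (0.0299) and ATP5F1B (-0.0921, adjusted p = 0.00526 in limma) in A549, for COX1 (0.0101), ATP5ME (-0.00259) and COX8A (-0.0547) in 293T, for CYTB (0.0610) and COX1 (-0.0101) in the difference, and for CYTB (-0.156), COX2 (-0.320), ATP6 (-0.0505) and ATP8 (-0.0641) between controls. ATP8 between controls was also -0.0530 in TPM. With the equal sum, ATP5IF1 in A549 was -0.0153 and COX3 in the difference -0.00634, and median centring put CYTB in 293T at 0.00513. Against the mean of all 13 genes, COX1 in A549 moved by 0.00737 and COX2 in 293T by -0.0185. The cause of these turns was not tested.

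Without 1 library, log2 values crossed 0 for ATP8 (-0.0730 to 0.234) and ATP5IF1 (-0.0436 to 0.0690) in A549, CYTB in 293T (-0.0542 to 0.0195), COX3 in the difference (-0.0330 to 0.0458), ATP8 between controls (-0.0665 to 0.240), and, against the mean of the 6, COX1 in A549 (-0.0551 to 0.00335) and COX3 (-0.0203 to 0.0178) and ATP6 (-0.0777 to 0.00625) in 293T. The equal sum called CYTB lower in A549 (limma adjusted p = 0.0364), and without A549 control replicate 1 ATP8 was called between controls (0.0276).

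The values gave no sign of pairing by replicate number, as exposed and control libraries of the same number deviated with correlations of -0.14 to 0.0001. Such correlations cannot show whether libraries of the same number were prepared together. With the replicate block 4 genes were lower in A549 and 5 in 293T, and no call among the 6 genes changed, while ATP5MC2 in A549 was lost (limma adjusted p = 0.0585) and SCO2 in 293T was gained (0.0443). Adding nuclear copies to each gene and taking shares outside mitochondrial ribosomal RNA were not run, since neither kind of gene is among the rows used.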
